A study of Mus musculus with 40 samples.

Results

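Chemokines and their receptors were examined in whole-liver RNA-seq of mice that lack Nampt in hepatocytes. Members were the genes whose mouse symbol is that of a numbered chemokine ligand (Ccl, Cxcl, Cx3cl or Xcl) or of a numbered receptor (Ccr, Cxcr, Cx3cr, Xcr or Ackr) and that had at least 10 counts in at least 3 of 38 libraries. This rule kept 47 of 60 such symbols, among 20817 genes of the 55487 in the count table that met the same count minimum. The members comprised 28 ligands (15 CC, 11 CXC and 2 CX3C or XC) and 19 receptors (8 CC, 5 CXC, 2 CX3C or XC and 4 atypical). The 13 symbols below the count minimum were Ccl1, Ccl11, Ccl12, Ccl17, Ccl20, Ccl21b, Ccl26, Ccl27b, Cxcl3, Cxcl15, Ccr4, Ccr8 and Cxcr1.

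The study asked how liver injury and its transcriptome develop when hepatocytes cannot salvage nicotinamide into NAD through Nampt. Hepatocyte-specific Nampt knockout mice (HNKO), which carry Nampt fl/fl and a Cre driven by the albumin promoter, were compared with floxed littermates (WT). All animals were 9-week-old females on the C57BL/6JBomTac background, all received a purified diet, and livers were taken after 3, 6, 12 or 21 days. The number of WT and HNKO libraries was 5 and 5 on day 3, 4 and 5 on day 6, 5 and 6 on day 12, and 5 and 3 on day 21. The knockout was aimed at hepatocytes, and Nampt was not measured separately in other liver cells here. Whole-liver RNA mixes hepatocytes with these other cells.

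Chemokines are small secreted proteins that direct leukocyte movement through G protein-coupled receptors. Those of the CC, CXC, CX3C and XC families are named for the spacing of their first cysteines. In the liver, Kupffer cells, stellate cells, endothelium, bile duct cells and injured hepatocytes can all release them. Ccl2 acting through Ccr2 is known for drawing monocytes out of the circulation, the Cxcr2 ligands for drawing neutrophils, and the Cxcr3 ligands for drawing activated T cells. Atypical receptors (Ackr) bind chemokines without coupling to G proteins and mostly remove them from the tissue.

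Total counts of the 38 libraries ranged from 16151037 to 64181492 with a median of 26466478.5. Nampt fell in HNKO on day 3 by 0.93 on the log2 scale (adjusted p = 0.0193), and its difference on day 21 was -0.69 (adjusted p = 0.161). Of the HNKO livers, 5 of 5 (day 3), 4 of 5 (day 6), 6 of 6 (day 12) and 3 of 3 (day 21) had less Nampt than any WT liver of their day. The 6 hepatocyte markers checked (Alb, Apoa1, Ttr, Cps1, Cyp2e1 and Ass1) summed to between 55700 and 148000 CPM (counts scaled to library size) in every library. On day 6 this sum was 116000 to 132000 CPM in WT and 55700 to 101000 CPM in HNKO, without overlap, beside the higher chemokine levels of that day, and its part in them was not tested. HNKO livers stood apart from each other within a day. On day 6, library 29 was the highest HNKO library for 15 of the 19 members that rose, and on day 21 library 37 was the highest and library 38 the lowest for 9 of 9. Another 2 HNKO libraries of day 21, numbers 17 and 18, are labelled as failing quality control and entered no comparison.

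More chemokine and receptor transcripts were called higher than lower in HNKO livers at every day, and day 6 had the most calls. In edgeR's quasi-likelihood test over all 20297 genes tested, with p-values adjusted by the Benjamini-Hochberg method and called below 0.05, 5 of the 47 members were called higher on day 3, 19 on day 6, 8 on day 12 and 9 on day 21. The shares of all tested genes called higher were 2.95%, 8.42%, 4.56% and 2.21% at these days. Members called lower numbered 1 on day 3, 2 on day 6 and 0 on days 12 and 21, against 1.71%, 4.37%, 3.27% and 0.916% of all genes. The median log2 fold change (HNKO minus WT) of the 47 members was 0.31, 1.0, 0.53 and 0.36 at the 4 days, and that of all tested genes was 0.01, -0.01, 0.0 and -0.01. Every HNKO library was above every WT library for 4 members on day 3 (2.31% of all genes), 20 on day 6 (8.08%), 7 on day 12 (2.65%) and 8 on day 21 (7.25%). Ccl4, Ccl7, Ccl8, Cxcl2, Cxcl5, Cxcr2 and Xcl1 had 10 or more counts in fewer than 3 WT libraries, and Cxcl2, Cxcl5 and Cxcr2 met the count minimum through HNKO libraries alone. Of the other 40 members, 5, 14, 7 and 7 were called higher at the 4 days. The medians and the counts of separated members above cover all 47, the 7 with few WT counts included. Of these 7, Cxcr2 was separated on days 3 and 21. Ccl7, Ccl8, Cxcl2, Cxcl5 and Cxcr2 were separated on day 6, and Ccl4, Ccl7 and Xcl1 on day 12.

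Both ligands and receptors were among them. On day 6, 12 of 28 ligands and 7 of 19 receptors rose. Over the days, 22 members were called at 1 or more days, against 18.7% of all genes, and 4 members at all 4 days, against 0.897%. The latter were the ligands Cxcl14 and Cx3cl1 and the receptors Ccr2 and Cx3cr1. In the contrast averaged over the 4 days, 23 members were called higher and 4 lower (19.2% and 17.3% of all genes), with a median log2 fold change of 0.63 against -0.01. Without the 7 members that had few counts in WT, 17 of 40 were called at 1 or more days, 17 were called higher and 4 lower in the averaged contrast, and the median was 0.48. Leaving out library 29 left 15 members called on day 6, leaving out library 2 left 2 on day 3, and leaving out library 37 left 0 on day 21. The shares of all genes called in these fits were not taken, so a loss particular to the members cannot be read from these counts.

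**Figure D1:**
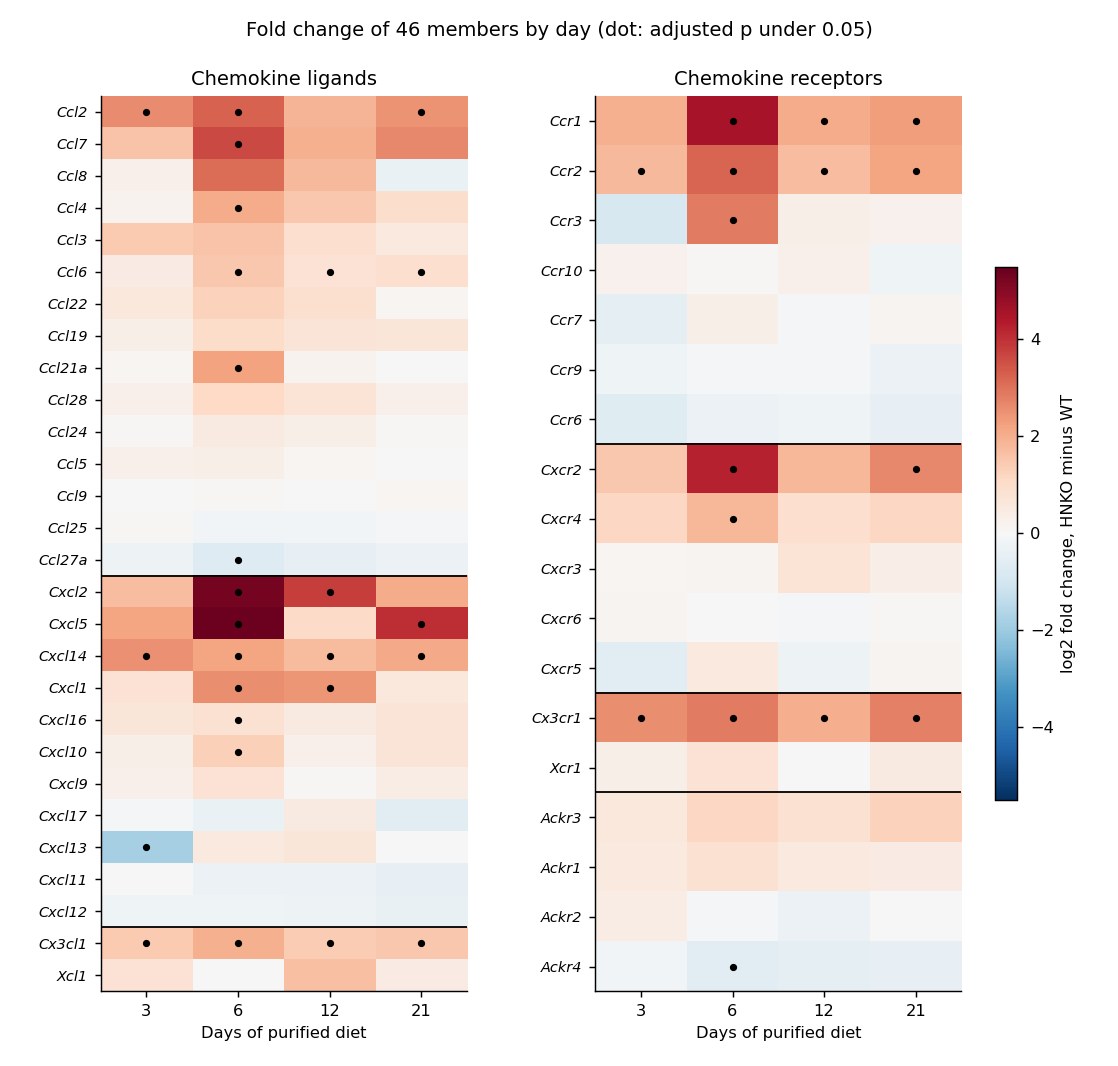
Heat map of the log2 fold change, HNKO minus WT, of 28 ligands (left) and 18 receptors (right) by day of purified diet (3, 6, 12 or 21), ordered within family by the averaged change, with a black dot where the adjusted p was under 0.05. The day 6 columns hold 20 of the dots drawn, and Cxcl14, Cx3cl1, Ccr2 and Cx3cr1 carry a dot at each of the 4 days.

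The difference between genotypes was largest in absolute size on day 6 for 31 of all 47 members, against 32.8% of all genes tested. Ccl4, Ccl7, Ccl8, Cxcl2, Cxcl5 and Cxcr2, which had few counts in WT, were among the 31. The test of a genotype difference that varies with day called 0 members, as for all genes (0.0%), both in edgeR and in DESeq2, while 7 members had an unadjusted p under 0.05. Within HNKO livers 10 members varied over the days (7.9% of all genes), among them Ccl4, Ccl6, Ccl7, Ccr1, Ccr2, Ccr3, Cxcl1, Cxcl2 and Cxcr2. Without HNKO library 29 this count was 5, and Ccl4, Ccl7, Ccr2, Cxcl1 and Cxcl2 were not among them. Of the 38 fits that left out a library, Ccl7 lost this call in 10, Cxcl1 in 9 and Ccr2 in 5, and Ccl7 also lost it with no filter beyond 1 count, with all 40 libraries and with the series of library numbers as covariate. Within WT livers 2 did (5.84% of all genes), Ccr3 and Cxcl13, and 0 did without WT library 24 or with all 40 libraries.

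Levels were compared between genes per length, as FPKM (fragments scaled to exon length and library size). Over the libraries of all 4 days, Cxcl12, which retains Cxcr4-bearing cells in tissues, had the highest median in both genotypes. It was 35.6 FPKM in 19 WT and 30.9 FPKM in 19 HNKO libraries. Ccl9, a myeloid CC ligand, followed with 22.7 and 24.2 FPKM, and its range in WT (18.2 to 30.3 FPKM) overlapped that of Cxcl12 (26.7 to 51.3 FPKM). The ranges in HNKO, 16.8 to 32.4 FPKM for Ccl9 and 21.4 to 41.1 FPKM for Cxcl12, overlapped too. The next WT medians, of Cxcl9, Ackr4, Ccl6 and Cxcl1, lay between 4.2 and 6.48 FPKM with overlapping ranges. The WT median of Ccl2 was 0.582 FPKM, that of Ccr2 0.408, that of Cx3cr1 0.209, that of Ccr1 0.0624 and that of Cxcr2 0.0383 FPKM. In HNKO, over libraries of all 4 days, the median of Cxcl1 was 12.1 FPKM with a range of 2.05 to 42.9, that of Ccl2 was 2.64 FPKM and that of Ccr2 was 1.78 FPKM. All these medians mix days whose levels differ, so no order within a day was read from them.

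**Figure D2:**
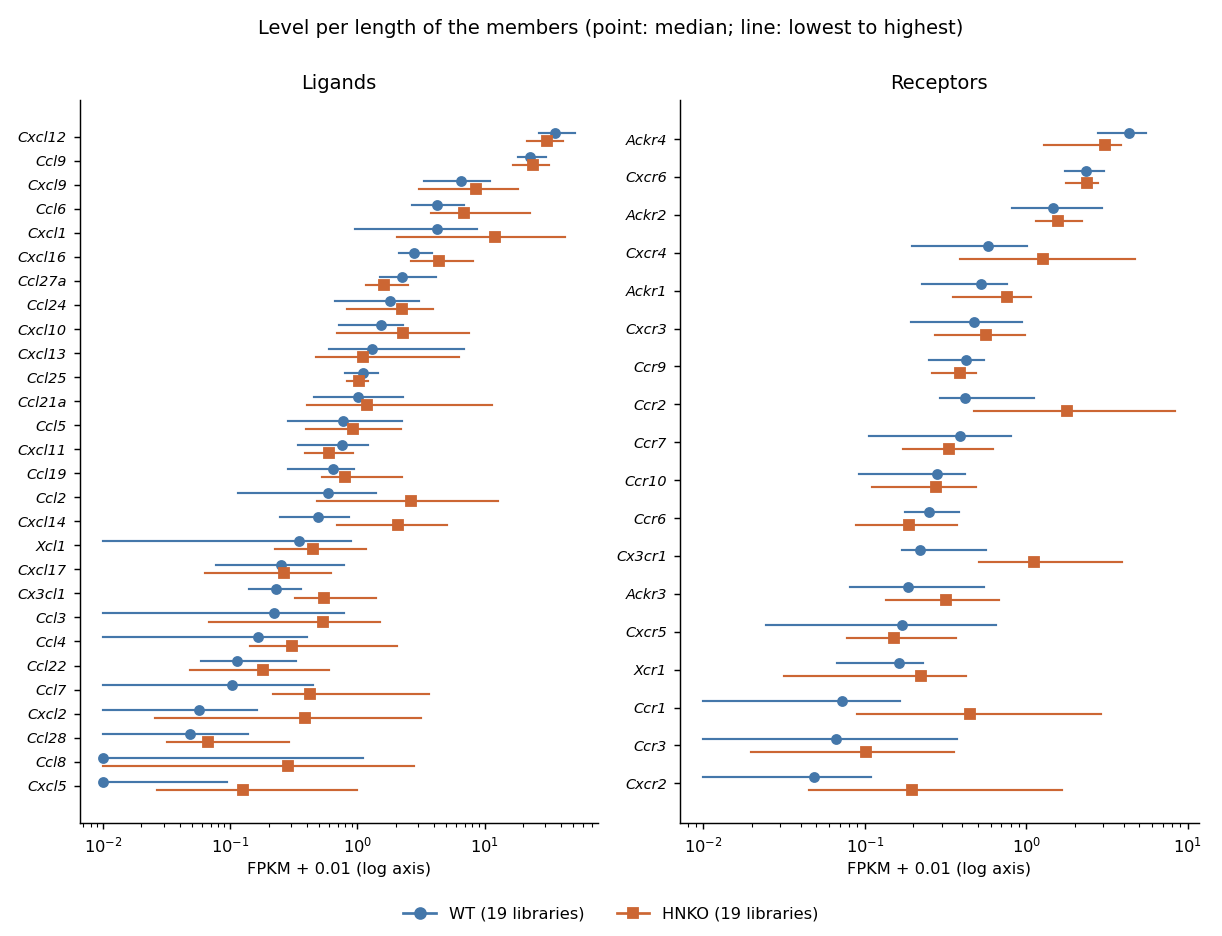
Level per length of 46 members in FPKM plus 0.01 on a log axis, for 19 WT (blue circles) and 19 HNKO libraries (orange squares), points being medians and lines running from the lowest to the highest library. Cxcl12 and Ccl9 lie at the top with overlapping genotypes, and Ccl2, Cxcl14, Ccr2 and Cx3cr1 show the HNKO median to the right of the WT median.

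Among the CC ligands, Ccl2, the monocyte attractant that binds Ccr2, rose in HNKO on days 3, 6 and 21. Levels below are log2 CPM after TMM scaling, with a prior count of 2, in order of library number within each group. Log2 fold changes are given with their standard error. In WT livers, Ccl2 was at -0.08, 0.48, -2.39, -0.58 and -0.34 on day 3, -1.26, -0.34, 0.0 and -0.69 on day 6, -0.12, -0.74, -0.86, -0.62 and 0.53 on day 12 and -0.36, -0.45, -0.73, 0.73 and -0.88 on day 21. In HNKO livers, Ccl2 was at 2.91, 2.62, 0.47, 0.29 and 2.83 on day 3, 1.49, 1.62, 3.87, 2.6 and 1.94 on day 6, from -0.71 through a median of 1.3 to 2.62 on day 12 and 3.16, 0.34 and 1.48 on day 21. The HNKO libraries were all above the WT libraries on day 6, whereas 2 HNKO libraries of day 3, 2 of day 12 and 1 of day 21 lay within the WT range. The log2 fold change of Ccl2 was 2.62 ± 0.63 (adjusted p = 0.0149) on day 3, 3.26 ± 0.71 (adjusted p = 0.0025) on day 6, 1.85 ± 0.6 (adjusted p = 0.0514) on day 12 and 2.46 ± 0.67 (adjusted p = 0.0371) on day 21. Leaving out HNKO library 37 lowered the day 21 value of Ccl2 to 1.37 with an adjusted p of 0.667, and leaving out WT library 19, 20, 21 or 41 gave an adjusted p of 0.0755 to 0.0866. Without HNKO library 2 the day 3 value was 2.38 with an adjusted p of 0.0526.

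Ccl6, a CC ligand of myeloid cells that binds Ccr1, changed less but from a higher level. In WT livers, Ccl6 was at log2 CPM values of 2.62, 3.19, 3.48, 3.22 and 3.1 on day 3, 3.04, 2.99, 3.64 and 2.98 on day 6, 2.56, 2.95, 2.43, 2.33 and 2.95 on day 12 and 2.29, 2.58, 2.66, 2.78 and 2.38 on day 21. In HNKO livers, Ccl6 was at 3.38, 3.99, 3.27, 3.32 and 3.84 on day 3, 4.34, 4.3, 5.34, 4.74 and 4.18 on day 6, from 2.78 through a median of 3.59 to 3.64 on day 12 and 3.69, 3.33 and 3.38 on day 21. The genotypes did not overlap on days 6 and 21 and overlapped on days 3 and 12. The log2 fold change of Ccl6 was 0.45 ± 0.2 (adjusted p = 0.192) on day 3, 1.47 ± 0.22 (adjusted p = 6.31e-05) on day 6, 0.78 ± 0.2 (adjusted p = 0.014) on day 12 and 0.94 ± 0.23 (adjusted p = 0.0203) on day 21. Ccl6 also varied with day within HNKO (adjusted p = 9.23e-05), whereas the test within WT gave an adjusted p of 0.0814. The day 21 call of Ccl6 was lost without HNKO library 37 (adjusted p = 0.306) or WT library 19 (adjusted p = 0.0571).

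Ccl7, which shares Ccr2 with Ccl2, was close to the detection limit in WT on day 6 (0 to 3 counts per library) and had 6 to 125 counts in HNKO, a log2 fold change of 3.61 ± 0.77 (adjusted p = 0.00192). Its differences of 1.56 ± 0.67 (adjusted p = 0.171), 1.95 ± 0.76 (adjusted p = 0.104) and 2.65 ± 0.77 (adjusted p = 0.0506) on days 3, 12 and 21 did not pass the test. Ccl4, an inflammatory ligand released by macrophages, rose on day 6 by 2.04 ± 0.51 (adjusted p = 0.00756), from 2 to 5 counts in WT to 7 to 58 in HNKO. Without library 29 the Ccl4 value was 1.58 with an adjusted p of 0.0611. Ccl21a, a ligand of Ccr7 on lymphocytes and dendritic cells, was called on day 6 (2.22 ± 0.69, adjusted p = 0.0305) with HNKO library 7 at 3.32 log2 CPM, the other HNKO libraries lying between -1.29 and 0.85 and WT between -1.11 and -0.08. Without library 7 the Ccl21a difference was 0.52 (adjusted p = 0.613), without WT library 8, 10 or 28 its adjusted p was 0.0717 to 0.0936, and 71.2% of its 51-base sequences occur in other genes. Ccl27a, a Ccr10 ligand best known in skin, fell on day 6 by 0.69 on the log2 scale (adjusted p = 0.0426), and 44.5% of its 51-base sequences are shared. The call of Ccl27a was kept in 3 of the 9 fits that left out a library of day 6, and was lost without WT library 8, 10 or 28 or HNKO library 29, 30 or 31 (adjusted p from 0.0501 to 0.143).

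The other CC ligands passed no test at a single day. Ccl5, which T cells release, differed by 0.27 ± 0.41 (adjusted p = 0.761), 0.34 ± 0.42 (adjusted p = 0.67), 0.09 ± 0.39 (adjusted p = 0.914) and 0.03 ± 0.47 (adjusted p = 0.984) at the 4 days, and by 0.18 ± 0.21 (adjusted p = 0.541) averaged. Ccl9 differed by 0.04 ± 0.07 (adjusted p = 0.68) averaged over the days. Ccl3, Ccl19 and Ccl22 were called higher in the averaged contrast, by 1.12 ± 0.3 (adjusted p = 0.00364), 0.67 ± 0.17 (adjusted p = 0.00189) and 0.71 ± 0.28 (adjusted p = 0.0447). The call of Ccl22 was lost in 21 of the 38 fits that left out a library (adjusted p from 0.0504 to 0.107), with no filter beyond 1 count and with all 40 libraries. Of the 51-base sequences of Ccl19, 51.7% occur in other genes. Ccl24, Ccl25, Ccl28 and Ccl8 were not called there, with averaged differences from -0.07 to 1.19.

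Among the CXC ligands, Cxcl14, a homeostatic chemokine made by epithelia and stroma, rose at all 4 days. In WT livers, Cxcl14 was at log2 CPM values of 0.38, 0.22, -0.35, 0.03 and 0.25 on day 3, 0.59, -0.08, -0.08 and 0.59 on day 6, 0.69, -0.22, 0.64, -0.49 and -0.32 on day 12 and -0.36, -0.23, -0.35, -0.96 and -0.99 on day 21. In HNKO livers, Cxcl14 was at 3.22, 2.64, 1.06, 1.96 and 3.14 on day 3, 1.53, 2.73, 3.17, 2.31 and 1.7 on day 6, from 0.81 through a median of 1.5 to 2.75 on day 12 and 2.24, 0.39 and 1.03 on day 21. No HNKO library overlapped the WT libraries of its day. The log2 fold change of Cxcl14 was 2.53 ± 0.42 (adjusted p = 0.00101) on day 3, 2.19 ± 0.45 (adjusted p = 0.00147) on day 6, 1.76 ± 0.4 (adjusted p = 0.00809) on day 12 and 2.07 ± 0.47 (adjusted p = 0.0138) on day 21. Without HNKO library 37 the day 21 value of Cxcl14 was 1.39 with an adjusted p of 0.44.

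Cxcl1, Cxcl2 and Cxcl5 attract neutrophils through Cxcr2. Cxcl1 ranged from 2.57 to 3.73 log2 CPM in WT and from 5.39 to 6.04 in HNKO on day 6, and its log2 fold change was 2.57 ± 0.53 (adjusted p = 0.00157). On day 12 it ranged from 0.88 to 3.57 in WT and from 1.97 to 6.33 in HNKO, a difference of 2.41 ± 0.48 (adjusted p = 0.00369) with overlap, and a fit of day 12 alone gave Cxcl1 2.42 with an adjusted p of 0.0629. The differences of Cxcl1 on days 3 and 21, 0.79 ± 0.47 (adjusted p = 0.351) and 0.56 ± 0.53 (adjusted p = 0.639), did not pass the test. All HNKO libraries thus exceeded the WT libraries for this ligand on day 6, and 2 of those of day 12 lay within the WT range.

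Cxcl2 was scarcer. Its counts on day 6 were 3, 0, 2 and 3 in WT and 30, 28, 281, 58 and 220 in HNKO, so that its log2 fold change was 5.27 ± 1.04 (adjusted p = 0.000972). On day 12 the difference of Cxcl2 was 3.79 ± 0.97 (adjusted p = 0.0158), carried by HNKO libraries 11 and 12 with 96 and 46 counts while the other HNKO libraries had 1 to 9. Without library 11 the day 12 value was 2.91 with an adjusted p of 0.0716, and low counts kept Cxcl2 out of the fit of day 12 alone. Cxcl5 had 1 count in all 4 WT libraries of day 6 and 115 in the 5 HNKO libraries, a ratio of CPM of 79.1 with a 95% exact interval of 13.9 to 3150 that covers counting error only. Of the 115 HNKO counts, 78 were in library 29. Cxcl5 was called on day 6 (5.41, adjusted p = 0.0056), where its value was 4.52 without HNKO library 29 and 7.26 without WT library 27. It was called on day 21 (adjusted p = 0.0252), where its HNKO counts were 40, 1 and 15 against 0 to 4 in WT. Low counts kept Cxcl5 out of the fits of these days alone. The day 21 call of Cxcl5 was lost without HNKO library 37 (adjusted p = 0.518) or without WT library 19, 21 or 41 (adjusted p from 0.062 to 0.0788), and with the series of library numbers as covariate its adjusted p was 0.0601.

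**Figure D3:**
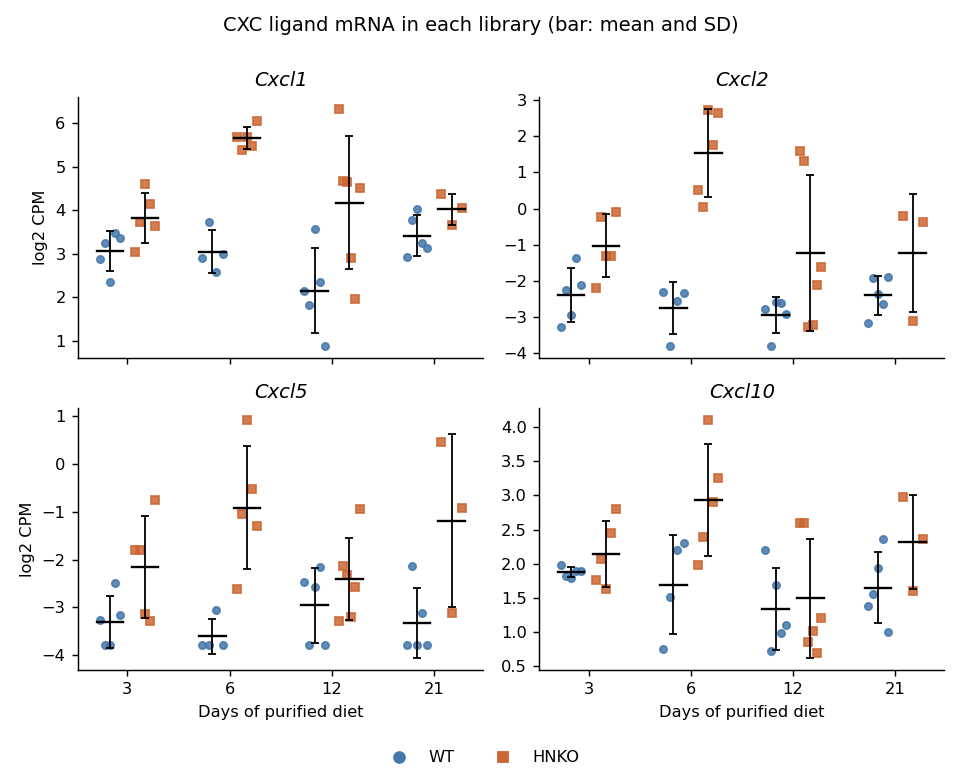
Level of Cxcl1, Cxcl2, Cxcl5 and Cxcl10 in log2 CPM in each WT (blue circles) and HNKO library (orange squares) by day of purified diet, with the mean and SD of each group in black. On day 6 the HNKO libraries lie above the WT libraries for Cxcl1, Cxcl2 and Cxcl5, and for Cxcl10 the genotypes overlap.

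Cxcl16, a membrane-bound ligand of Cxcr6, rose on day 6 by 0.82 ± 0.22 (adjusted p = 0.0135), from a WT range of 3.11 to 3.25 log2 CPM to an HNKO range of 3.54 to 4.61, and without HNKO library 29 its value was 0.63 with an adjusted p of 0.0885. Its exons overlap those of Zmynd15 on the opposite strand over 18.3% of their length, and whether strand was used in counting is not given in the sources used here. Of the interferon-inducible Cxcr3 ligands, Cxcl10 was called higher on day 6 (1.33 ± 0.43, adjusted p = 0.0356), with WT at 0.75 to 2.31 and HNKO at 1.98 to 4.1 log2 CPM. Without HNKO library 29 the Cxcl10 value was 0.94 with an adjusted p of 0.206, and without WT library 8 or 10 the adjusted p was 0.138 or 0.102. Cxcl9 and Cxcl11 passed no test, with averaged differences of 0.38 ± 0.18 (adjusted p = 0.0982) and -0.28 ± 0.12 (adjusted p = 0.0647). Cxcl11 is annotated as a polymorphic pseudogene, and 40.4% of its 51-base sequences occur in other genes. Its exons overlap those of Gm2673 on the opposite strand over 41.7% of their length.

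Cxcl13, the B cell attractant that binds Cxcr5, was the member called lower on day 3. Its levels were 1.7, 1.11, 2.16, 1.46 and 2.99 log2 CPM in WT and 0.03, 0.4, 0.55, 0.4 and -0.16 in HNKO, which did not overlap, and its log2 fold change was -1.83 ± 0.5 (adjusted p = 0.0301). The call was lost without HNKO library 2, 3 or 23 or WT library 24 or 26, and without WT library 26 the Cxcl13 value was -1.44 with an adjusted p of 0.0952. The difference was 0.53 ± 0.55 (adjusted p = 0.588), 0.68 ± 0.47 (adjusted p = 0.386) and 0.02 ± 0.57 (adjusted p = 0.989) at the later days. Cxcl13 varied with day within WT livers (adjusted p = 0.0382), whose day 6 libraries ranged from 0.19 to 0.38 log2 CPM, and this call was lost in 11 of the 38 fits that left out a library (adjusted p from 0.0502 to 0.22) and with all 40 libraries (adjusted p = 0.131). On day 3 the 5 B cell markers summed to between 6.97 and 60.1 CPM in WT and between 6.19 and 11.2 CPM in HNKO, and 1 of the 5 was called lower. The part of B cells in the Cxcl13 result was not tested. Cxcl12 passed no test at a single day and was called lower in the averaged contrast (-0.29 ± 0.09, adjusted p = 0.0083).

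Cx3cl1, or fractalkine, is a membrane-anchored ligand whose receptor is Cx3cr1. In WT livers, Cx3cl1 was at log2 CPM values of 0.31, -0.24, 0.03, -0.12 and -0.01 on day 3, -0.03, -0.77, -0.32 and -0.51 on day 6, -0.01, -0.66, 0.55, 0.15 and -0.12 on day 12 and 0.42, -0.3, -0.56, 0.18 and -0.6 on day 21. In HNKO livers, Cx3cl1 was at 1.96, 1.12, 1.03, 0.8 and 1.7 on day 3, 1.23, 1.9, 1.7, 1.46 and 0.86 on day 6, from 0.54 through a median of 1.04 to 2.46 on day 12 and 2.01, 0.39 and 0.87 on day 21. The genotypes did not overlap on days 3 and 6 and overlapped on days 12 and 21 by the lowest HNKO library. HNKO minus WT, the difference of Cx3cl1 was 1.44 ± 0.34 (adjusted p = 0.0127) on day 3, 1.95 ± 0.38 (adjusted p = 0.000922) on day 6, 1.41 ± 0.32 (adjusted p = 0.00858) on day 12 and 1.47 ± 0.38 (adjusted p = 0.0246) on day 21. The day 21 call of Cx3cl1 was lost without HNKO library 37 (0.86, adjusted p = 0.598) or WT library 20, 21 or 41 (adjusted p from 0.0553 to 0.0687), and the day 3 call without HNKO library 2 (adjusted p = 0.0595) or with all 40 libraries (adjusted p = 0.0662). Xcl1, the Xcr1 ligand of T and NK cells, passed no test at a single day and was called higher in the averaged contrast (0.72 ± 0.25, adjusted p = 0.0235).

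Promoter sequences are shown for 4 ligands that were called higher on day 6. RefSeq windows (GRCm38.p6) of 250 bases before the gene start were found for 34 of the 47 members, including Cxcl14, Cx3cl1 and Ccl6 of the ligands described per library. Cxcl1 and Cxcl2 were added after their values were seen, as neighbouring Cxcr2 ligands that both rose on day 6. The Cx3cl1 window lies largely inside the gene as annotated by GENCODE, and only its match is given. Capitals mark matches, on either strand, to the letters GGNNNTTCC of NF-kB (reverse GGAANNNCC), TGANTCA of AP-1, GAAANNGAA of IRF (reverse TTCNNTTTC) or TTCNNNGAA of STAT, and no matches overlapped.
Cxcl14 (chr13:56296552-56296801, minus strand): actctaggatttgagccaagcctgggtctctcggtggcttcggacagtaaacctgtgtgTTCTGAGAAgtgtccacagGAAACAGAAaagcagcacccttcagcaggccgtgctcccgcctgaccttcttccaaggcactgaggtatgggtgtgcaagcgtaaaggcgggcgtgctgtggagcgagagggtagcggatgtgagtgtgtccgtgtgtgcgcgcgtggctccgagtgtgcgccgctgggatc
Ccl6 (chr11:83593088-83593337, minus strand): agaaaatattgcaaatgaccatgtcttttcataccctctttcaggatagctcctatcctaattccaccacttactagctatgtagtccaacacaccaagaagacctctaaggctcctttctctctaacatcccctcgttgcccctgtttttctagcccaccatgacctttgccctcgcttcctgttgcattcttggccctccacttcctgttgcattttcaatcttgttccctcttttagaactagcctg
Cxcl1 (chr5:90890995-90891244, plus strand): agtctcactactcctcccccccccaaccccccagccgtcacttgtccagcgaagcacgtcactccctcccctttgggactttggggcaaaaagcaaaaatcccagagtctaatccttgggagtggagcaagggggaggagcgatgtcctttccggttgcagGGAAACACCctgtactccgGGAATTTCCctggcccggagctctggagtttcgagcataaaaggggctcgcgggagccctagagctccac
Cxcl2 (chr5:90903649-90903898, plus strand): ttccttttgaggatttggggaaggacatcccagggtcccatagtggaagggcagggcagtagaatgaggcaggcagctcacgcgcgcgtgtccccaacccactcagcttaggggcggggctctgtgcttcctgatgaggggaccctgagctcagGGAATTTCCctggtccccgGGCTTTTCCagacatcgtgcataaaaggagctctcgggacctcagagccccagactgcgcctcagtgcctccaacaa

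The NF-kB letters stood in 15.7% of 32851 such windows of all genes and for 12 of the 34 members with a window (35.3%). Shares of all genes count windows, whereas a member counted if any of its windows matched, so the units differ. The IRF letters matched for 6 members (17.6%, against 7.13% of all windows), the AP-1 letters for 4 (11.8%, against 6.75%) and the STAT letters for 2 (5.88%, against 7.02%). Cxcl1 held 2 matches, whose first bases lay 89 and 70 bases before the gene start, and Cxcl2 held 2, at 96 and 77 bases. In both promoters the sequence GGAATTTCC was among them. Cx3cl1 held 1 match, GGCTCTTCC, 71 bases before the RefSeq start, which places it inside the gene as annotated by GENCODE. Cxcl14 held no match to the NF-kB letters but 1 to the STAT letters and 1 to the IRF letters. The Ccl6 window held none of the 4 motifs, and the AP-1 letters stood in none of these 5 windows. A match is a match of letters and was not tested as a binding site.

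Ccr2, the Ccl2 receptor of inflammatory monocytes, was called at all 4 days. In WT livers, Ccr2 was at log2 CPM values of 1.53, 1.28, 1.86, 1.74 and 2.92 on day 3, 1.27, 1.16, 1.92 and 1.73 on day 6, 1.5, 1.39, 1.18, 1.27 and 1.2 on day 12 and 1.52, 1.44, 1.91, 1.99 and 1.0 on day 21. In HNKO livers, Ccr2 was at 4.07, 3.68, 2.29, 2.3 and 4.8 on day 3, 3.38, 4.34, 5.82, 4.75 and 3.97 on day 6, from 1.68 through a median of 2.89 to 3.64 on day 12 and 4.57, 2.27 and 3.59 on day 21. The genotypes overlapped on day 3, where WT library 26 lay above 2 HNKO libraries, and did not overlap at the later days. For Ccr2 the log2 fold change was 1.77 ± 0.45 (adjusted p = 0.0204) on day 3, 3.18 ± 0.52 (adjusted p = 0.000156) on day 6, 1.71 ± 0.45 (adjusted p = 0.0173) on day 12 and 2.17 ± 0.49 (adjusted p = 0.0142) on day 21. The day 3 call of Ccr2 was lost without HNKO library 2 or 23 or WT library 5 or 25 (adjusted p from 0.056 to 0.107), and the day 21 call without HNKO library 37 (1.51, adjusted p = 0.414).

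Cx3cr1, the fractalkine receptor of patrolling monocytes and many tissue macrophages, had the smallest p of all members in the averaged contrast (adjusted p = 4.2e-09). In WT livers, Cx3cr1 was at log2 CPM values of 0.02, 0.04, 0.69, -0.12 and 1.35 on day 3, -0.03, -0.34, 0.42 and 0.71 on day 6, 0.32, 0.35, -0.26, -0.06 and 0.1 on day 12 and -0.09, 0.01, 0.35, 0.0 and -0.22 on day 21. In HNKO livers, Cx3cr1 was at 3.61, 2.64, 2.19, 1.41 and 3.8 on day 3, 1.76, 3.25, 4.14, 2.73 and 1.93 on day 6, from 1.22 through a median of 1.39 to 3.13 on day 12 and 3.55, 1.44 and 2.34 on day 21. Every HNKO library was above every WT library of its day. The log2 fold change of Cx3cr1 was 2.54 ± 0.48 (adjusted p = 0.00318) on day 3, 2.86 ± 0.54 (adjusted p = 0.000641) on day 6, 1.98 ± 0.47 (adjusted p = 0.0102) on day 12 and 2.75 ± 0.53 (adjusted p = 0.00431) on day 21. Without HNKO library 37 the day 21 value of Cx3cr1 was 2.02 with an adjusted p of 0.226.

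Ccr1, a receptor of several inflammatory CC ligands on monocytes and neutrophils, was among the scarcest members in WT. In WT livers, Ccr1 was at log2 CPM values of -2.56, -1.98, -2.39, -1.24 and -0.96 on day 3, -3.8, -1.61, -2.56 and -1.29 on day 6, -0.96, -2.77, -2.58, -1.97 and -2.62 on day 12 and -1.37, -2.41, -1.74, -2.01 and -2.13 on day 21. In HNKO livers, Ccr1 was at 0.22, 0.66, -1.05, -1.53 and 0.75 on day 3, 0.69, 1.57, 3.04, 2.38 and 1.35 on day 6, from -1.76 through a median of -0.43 to 0.47 on day 12 and 0.88, -0.84 and -0.2 on day 21. The genotypes did not overlap on days 6 and 21 and overlapped on days 3 and 12. On the log2 scale Ccr1 differed by 1.97 ± 0.6 (adjusted p = 0.0513) on day 3, 4.52 ± 0.68 (adjusted p = 7.66e-05) on day 6, 2.05 ± 0.6 (adjusted p = 0.0326) on day 12 and 2.32 ± 0.65 (adjusted p = 0.0419) on day 21. The day 12 call of Ccr1 was lost without HNKO library 11 or 13 or WT library 15, 16, 33 or 34 (adjusted p from 0.0641 to 0.0852). Its day 21 call was lost without HNKO library 37 (adjusted p = 0.547) or any 1 of the 5 WT libraries (adjusted p from 0.06 to 0.0879), and with the series of library numbers as covariate (adjusted p = 0.0508).

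Cxcr2, the neutrophil receptor of Cxcl1, Cxcl2 and Cxcl5, rose on days 6 and 21. In WT livers, Cxcr2 was at log2 CPM values of -2.56, -3.8, -1.69, -1.82 and -1.68 on day 3, -1.41, -1.61, -3.8 and -3.13 on day 6, -1.97, -1.58, -3.8, -2.37 and -2.91 on day 12 and -2.73, -2.41, -2.49, -3.11 and -2.13 on day 21, which corresponds to 0 to 7 counts per library. In HNKO livers, Cxcr2 was at -0.46, -0.88, -1.48, -1.67 and -0.65 on day 3, 0.69, 0.99, 2.36, 2.19 and 0.54 on day 6, from -2.48 through a median of -0.97 to 0.07 on day 12 and 0.29, -1.23 and -0.91 on day 21. The day 6 HNKO libraries, with 34 to 217 counts, stood above all others, and only on day 12 did the genotypes overlap. The genotype difference of Cxcr2 was 1.48 ± 0.66 (adjusted p = 0.187) on day 3, 4.22 ± 0.68 (adjusted p = 0.000155) on day 6, 1.84 ± 0.63 (adjusted p = 0.0645) on day 12 and 2.64 ± 0.71 (adjusted p = 0.0337) on day 21. The day 21 call of Cxcr2 was lost without HNKO library 37 (adjusted p = 0.517) or any 1 of the 5 WT libraries (adjusted p from 0.0515 to 0.0749).

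**Figure D4:**
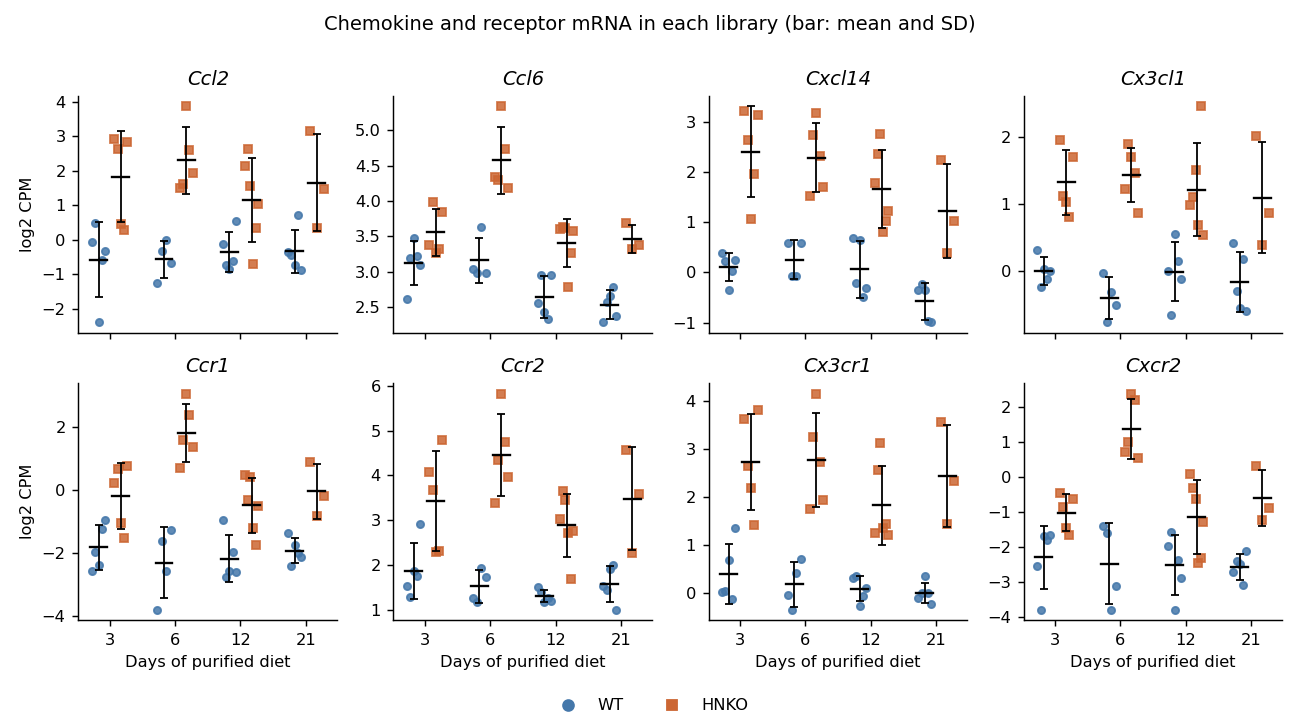
Level of the 4 ligands (top) and 4 receptors (bottom) with the smallest p in the averaged contrast, in log2 CPM, in each WT (blue circles) and HNKO library (orange squares) by day of purified diet, with the mean and SD of each group in black. Cxcl14 and Cx3cr1 are separated by genotype at all 4 days, and Ccr1, Ccr2 and Cxcr2 reach their highest HNKO values on day 6.

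Cxcr4 and Ccr3 were called on day 6 alone. Cxcr4, the Cxcl12 receptor of leukocytes, rose by 1.81 ± 0.47 (adjusted p = 0.00962), and without library 29 its value was 1.34 with an adjusted p of 0.0758. Ccr3, the eosinophil receptor of eotaxins, had 2, 2, 0 and 5 counts in WT and 20, 15, 35, 20 and 20 in HNKO on day 6 (2.86 ± 0.66, adjusted p = 0.00363). Its difference on day 3 was -0.86 ± 0.54 (adjusted p = 0.378), and Ccr3 varied with day both within WT (adjusted p = 0.0183) and within HNKO (adjusted p = 0.00294).

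Ccr6, Ccr7, Ccr9, Ccr10, Cxcr3, Cxcr5, Cxcr6 and Xcr1 did not pass the test at any day. Cxcr6, which marks liver-resident T and NKT cells, differed by 0.04 ± 0.06 (adjusted p = 0.703) averaged, and on day 6 it ranged from 1.77 to 2.21 log2 CPM in WT and from 1.8 to 2.24 in HNKO. Cxcr3, the receptor of Cxcl9 and Cxcl10 on activated T cells, differed by 0.34 ± 0.17 (adjusted p = 0.123) averaged. Xcr1, which marks cross-presenting dendritic cells, differed by 0.4 ± 0.21 (adjusted p = 0.138). Ccr7, Ccr9, Ccr10 and Cxcr5 had averaged differences from -0.18 to 0.08, and Ccr6 was called lower in the averaged contrast (-0.42 ± 0.15, adjusted p = 0.0281). The call of Ccr6 was lost without WT library 8 or HNKO library 29, 37 or 40 (adjusted p from 0.0528 to 0.1) and with no filter beyond 1 count (adjusted p = 0.0745).

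Of the 4 atypical receptors, 1 was called at a single day. Ackr4, which removes Ccl19, Ccl21 and Ccl25, fell on day 6 by 0.64 on the log2 scale (adjusted p = 0.0149), with overlapping ranges of 4.12 to 4.54 log2 CPM in WT and 2.79 to 4.14 in HNKO. Without HNKO library 29 the Ackr4 value was -0.44 with an adjusted p of 0.0784, and without WT library 8 it was -0.58 with an adjusted p of 0.0565. Its exons overlap over 8.9% of their length with Acad11 on the opposite strand, which had a median of 9882 counts. Ackr1, the Duffy receptor of venules and red cells, and Ackr3, which takes up Cxcl12, passed no test at a single day and were called higher in the averaged contrast, by 0.59 ± 0.14 (adjusted p = 0.00132) and 0.96 ± 0.24 (adjusted p = 0.00181). Ackr1 shares 25.7% of its exonic length with Cadm3 on the same strand. Ackr2, the scavenger of inflammatory CC ligands, differed by 0.0 ± 0.14 (adjusted p = 0.986) averaged.

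Ligands and receptors that bind each other can be set side by side from these values. For Ccl2 and Ccr2, both partners were called higher on days 3, 6 and 21, and for Cx3cl1 and Cx3cr1 at all 4 days. For Cxcl1, Cxcl2 and Cxcl5 with Cxcr2, all were called on day 6, but Cxcl2, Cxcl5 and Cxcr2 met the count minimum through HNKO libraries alone. For Cxcl16 and Cxcr6, and for Cxcl10 and Cxcr3, the ligand was called on day 6 and the receptor at none of the days. For Cxcl12 and Cxcr4, the receptor rose on day 6, where the ligand differed by -0.23 ± 0.18 (adjusted p = 0.438).

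Markers of the leukocytes that carry these receptors were measured in the same fit. In bulk RNA, more cells of a type and more RNA per cell cannot be told apart. All 6 pan-leukocyte markers were called higher on day 6, and 0, 4 and 1 of them on days 3, 12 and 21. Of the 10 markers of recruited monocytes and macrophages, 4, 10, 7 and 4 were called higher on days 3, 6, 12 and 21, and their summed level on day 6 was 28.1 to 32.9 CPM in WT and 60.2 to 166 CPM in HNKO. Gpnmb, Chil3 and Mmp12 rose most on day 6 (log2 fold changes of 4.76, 4.79 and 4.16). This list thus rose beside Ccr2, Cx3cr1 and Ccr1, and its part in their results was not tested.

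Of the 10 neutrophil markers, 5 passed the filter on low counts, and 0, 4, 2 and 0 of these were called higher on days 3, 6, 12 and 21. Their summed level on day 6 was 4.13 to 5.75 CPM in WT and 16.3 to 51.7 CPM in HNKO, with Ly6g and Mpo at 0 in all WT libraries of that day. S100a8 and S100a9 rose by 3.53 and 3.49 on the log2 scale. These markers moved on day 6 beside Cxcr2, and their part in its result was not tested. Of the 10 markers of T and NK cells, 0 were called at each day, with summed levels on day 6 of 5.6 to 9.8 CPM in WT and 7.09 to 10.4 CPM in HNKO. The 6 Kupffer cell markers were called at no single day, and 3 were called higher in the averaged contrast. Their summed level on day 6 was 423 to 537 CPM in WT and 528 to 666 CPM in HNKO.

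Markers of cells that could make the ligands were measured too. Of 5 cholangiocyte markers, 4, 4, 3 and 2 were called higher at the 4 days, and their summed level on day 3 was 4.88 to 9.79 CPM in WT and 10.9 to 22.8 CPM in HNKO. Of 6 markers of stellate cells and fibroblasts, 2, 2, 2 and 1 were called higher and 1 was called lower on day 12. Of 6 sinusoidal endothelial markers, 0 were called higher and 1 lower on days 6 and 12, and of 6 hepatocyte markers 2 were called lower on day 6 and 3 in the averaged contrast. Of 5 dendritic cell markers, 1, 3, 0 and 1 were called higher at the 4 days. How far each cell type contributes to a ligand was not tested.

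Other genes of the chemokine pathway followed the members in part. Of 4 ligands that the symbol rule misses, Pf4, a platelet CXC ligand also made by macrophages, rose on day 6 (log2 fold change of 1.65 ± 0.37, adjusted p = 0.00335) and on day 12 (1.23 ± 0.35, adjusted p = 0.0253), whereas Mif and Rarres2 fell on day 6 by 0.33 and 0.4. Of 8 other chemoattractant receptors, 0, 2, 1 and 0 were called higher at the 4 days. C5ar1, the complement C5a receptor, rose on day 6 by 2.82 ± 0.43 (adjusted p = 8.36e-05). Of 29 genes of receptor signalling, 1, 17, 5 and 2 were called higher and 0 lower, with Pik3r5 and Fgr at 1.6 and 1.34 on day 6. Of 19 tested genes among the inducers of chemokines and NF-kB, 0, 9, 1 and 1 were called higher, with Tnf at 2.37 ± 0.47 (adjusted p = 0.00104) and Il6 at 0.32 ± 0.61 (adjusted p = 0.796) on day 6. Each of these counts on day 6 reads against the 8.42% of all genes called higher.

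Many chemokine genes lie in clusters, within which differences between members were not tested. On chromosome 11 (GRCm38), Ccl2, Ccl7 and Ccl8 lie between 82035571 and 82116799, and the first 2 were called higher in the averaged contrast. The neighbouring group between 83525778 and 83664683 holds Ccl5 and Ccl9, which were not called, and Ccl6, Ccl3 and Ccl4, which were called higher by 0.91 ± 0.11, 1.12 ± 0.3 and 1.17 ± 0.27. On chromosome 5, Cxcl5, Cxcl1 and Cxcl2 (90759360 to 90905938) were all called higher by 1.58 to 3.19, while of Cxcl9, Cxcl10 and Cxcl11 (92321347 to 92365485) only Cxcl10 was. On chromosome 9, Ccr1 (123962124 to 123968692) and Ccr2 (124101950 to 124113557) were called, and Ccr9, Cxcr6, Xcr1 and Ccr3 of the same cluster were not. Ccl22 and Cx3cl1 on chromosome 8 were both called, by 0.71 ± 0.28 and 1.57 ± 0.18.

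**Figure D5:**
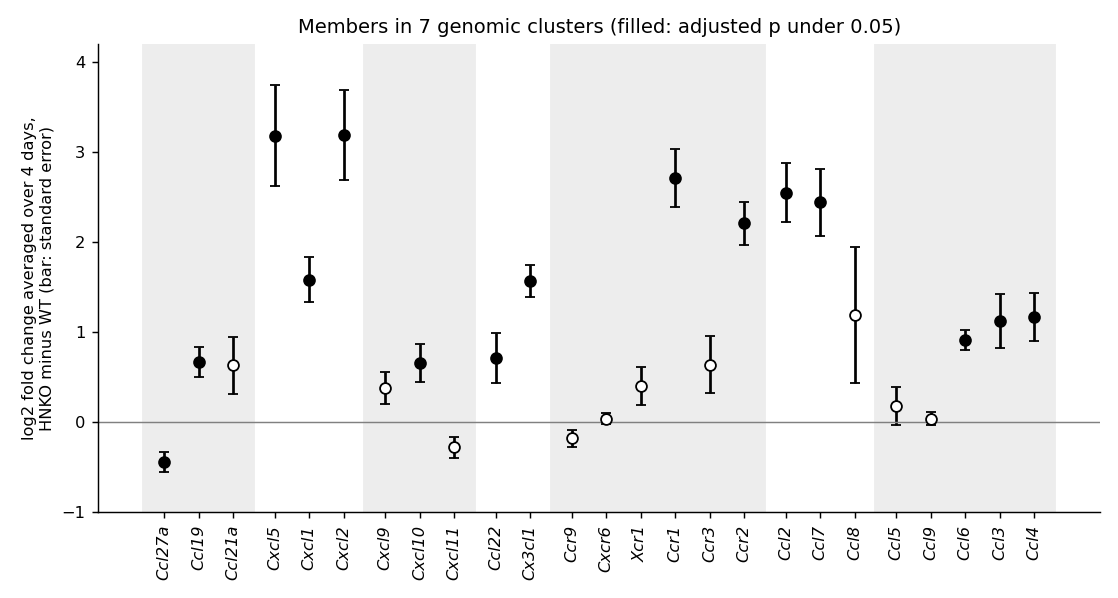
Log2 fold change averaged over the 4 days, HNKO minus WT, with its standard error, for 25 members that lie in 7 genomic clusters, in chromosomal order with shading separating the clusters and filled points where the adjusted p was under 0.05. Within the cluster from Ccl5 to Ccl4 the values run from 0.04 for Ccl9 to 1.17 for Ccl4, and all 3 members from Cxcl5 to Cxcl2 lie above 1.

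Library numbers run through the design in 2 series, from 1 to 21 and from 22 to 41, and the HNKO libraries of day 21 in use all come from the later series. Within each series and day where both genotypes were present, the 8 members described per library, which were chosen on these same libraries, are given as a description. Their differences in mean log2 CPM ran from 1.31 to 2.79 for Cx3cr1, from 1.42 to 2.57 for Cxcl14, from 1.15 to 3.02 for Ccr2, from 1.21 to 1.96 for Cx3cl1, from 0.31 to 1.44 for Ccl6, from 1.13 to 4.18 for Ccr1, from 0.26 to 3.15 for Ccl2 and from 0.57 to 5.16 for Cxcr2. Cxcl13, Ccl21a, Cxcl10, Ccr3 and Ackr4 changed sign between these comparisons. With the series as covariate 7 members were called on day 21, without Ccr1 and Cxcl5.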

How the data were processed

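RNA-seq counts of whole liver were deposited for 40 libraries, and 38 entered the comparisons because 2 HNKO libraries of day 21 are labelled as failing quality control. The deposited values are raw gene counts that the authors made with STAR 2.7.2b and featureCounts 1.6.4 on GRCm38 with a GENCODE annotation, per the labels and the study's methods. Whether counting used the strand of the stranded kit is not given in the sources used here. The labels give 3, 6, 12 and 21 days as age, and the study's methods give them as days of purified diet, which is followed here. The labels give each library as a separate sample but do not name its animal, so p-values measure the spread between these libraries.

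Here the counts were fitted with edgeR 4.0.16 (R 4.3.3): filterByExpr kept 20297 genes (99.937% of counts, a minimum near 0.378 CPM), libraries were scaled by TMM, and 1 mean was fitted for each of 8 groups with the quasi-likelihood test in its legacy computation. Benjamini-Hochberg adjustment covered all tested genes, and a gene was called below 0.05. Total counts ranged from 16151037 to 64181492, and members with under 10 counts in a library carry large counting error. FPKM used exon lengths of a GENCODE annotation of GRCm38. The fit was also run on simulated counts whose genotype effect did not vary with day. No outcome of that run is given, and no result here rests on it.

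Named were every member called at 1 or more days, a fixed set of well-known ligands and receptors, and members called over the days. The 8 members described per library had the smallest p in the averaged contrast. The members and lists were chosen with earlier results of these data known. Alternatives were DESeq2 1.42.0, its size factors in edgeR, no filter beyond 1 count, all 40 libraries, the edgeR 4 computation, the 2 series of library numbers as a covariate, a fit of each day alone, and each library left out. Protein sequences were not used here. Counts cover all 47 members, of which 1 is not reported here by itself or drawn.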

Additional observations from a re-analysis of the deposited data

Results flagged for a closer look

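Among 56 groups of 4 to 6 libraries tested over the 8 members described per library, 1 held a library far from the rest: Ccl6 in WT library 27 of day 6 was at 3.64 log2 CPM, against 2.98 to 3.04 in the other 3. Chance gives such a gap in about 1 in 20 groups.

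The 2 HNKO libraries of day 21 that failed quality control were outside every comparison. Of the 8 members, 5 were above every WT library of day 21 in library 17 (25.2% of all genes tested), and 7 were in library 18 (28.4%). In library 17 the other 3, Ccl2, Cx3cr1 and Cxcr2, had no counts, as had 34.8% of all genes tested, and in library 18 Ccr1 had none.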

How the results depend on the processing

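Counts of members called at days 3, 6, 12 and 21 and averaged were within 1.5 times of 6, 21, 8, 9 and 27 under every alternative that left in all 38 libraries or added the 2 that failed quality control. DESeq2 called 8, 22, 12, 10 and 28. Fits of each day alone tested 37, 41, 36 and 38 members and called 5, 16, 6 and 6. There Ccr2 (day 3), Ackr4, Ccl21a, Ccl27a and Cxcl10 (day 6), Ccr1 and Cxcl1 (day 12) and Cx3cl1 (day 21) missed the threshold, with adjusted p from 0.0532 to 0.192. Ccl4 and Cxcl5 (day 6), Cxcl2 (day 12) and Cxcl5 and Cxcr2 (day 21) were not tested there because of low counts. With all 40 libraries the calls of Cx3cl1 and Cxcl13 (day 3), Ccl21a, Ccl27a, Cxcl10 and Cxcl16 (day 6), Ccr1 (day 12) and Ccl2 (day 21) were lost, with adjusted p from 0.0516 to 0.293. Members that varied over the days within WT (2) numbered 0 with all 40 libraries, 4 with the edgeR 4 computation and 4 with the series of library numbers as covariate.

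With each library left out in turn, the counts ran from 2 to 9 at day 3 (2 without HNKO library 2), from 15 to 23 at day 6, from 6 to 12 at day 12, from 0 to 11 at day 21, from 0 to 3 for the days within WT and from 5 to 12 for the days within HNKO (5 without HNKO library 29). At day 21 the count was 0 without HNKO library 37, 5 without WT library 20, and 4 without WT library 19, 21 or 41. In the averaged contrast Ccl22 lost its call in 21 of 38 such fits, Ccr6 in 4 and no other called member in any. Within WT the count was 0 without WT library 24 and 1 without WT library 8, 10, 19, 26, 27, 34 or 41. The share of all genes called was not taken in these fits or in the alternatives above.

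Over all 47 members, the sign of a called difference turned in no alternative. Single values were tabulated for the 22 members called at a day, where signs turned for uncalled differences. Ccl21a was -0.01 at day 3 with the series as covariate and -0.01 at day 21 in DESeq2, Ccr3 was -0.34 and Cxcl13 -0.03 at day 21 with all 40 libraries. With a library left out, Ccl21a ran from -0.09 to 0.38 at day 3, -0.14 to 0.54 at day 12 and -0.15 to 0.25 at day 21, Ccr3 from -0.19 to 0.96 at day 12, Cxcl10 from -0.01 to 0.56 at day 12, and Cxcl13 from -0.14 to 0.97 at day 12 and -0.60 to 0.41 at day 21. The causes were not tested. Of the other values of these 22 members, 4723 kept direction and side of the threshold, 75 passed it newly and 89 no longer passed.

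No paired analysis was possible because the groups share no library number. Cxcl5, Cxcl2, Ccl7 and Cxcr2 had few counts in WT, so the size of their change is poorly bounded.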
